A study of Homo sapiens with 24 samples.

Results

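PC9 cells labelled YAP1 knockout (YAP1 KO) were set against PC9 control cells (CTRL), each grown as 3 dishes and kept in DMSO, the drug solvent, for 24 hours. The genes described here are the rows of the deposited table with FPKM of 1 or more in at least 3 of those 6 libraries, 12111 of 25365 gene rows. FPKM are fragments per kilobase of transcript scaled by mapped fragments, so levels can be set side by side between genes. PC9 is an established human lung adenocarcinoma line that depends on an activating EGFR mutation. The whole study has 24 libraries in 8 groups of 3, from PC9 and a second EGFR-mutant line, HCC4006, each as YAP1 KO and CTRL cells and each in DMSO or in OT, which is osimertinib (an EGFR inhibitor) at 100 nM with trametinib (a MEK inhibitor) at 30 nM. Cells of every group were grown in RPMI medium with serum and no other allele is named, so the 2 groups compared differ by genotype alone as far as the labels tell. The labels do not say whether the YAP1 KO cells were 1 clone or a pool, nor how the CTRL cells were made. Column names in the deposited table code the YAP1 KO cells of the 2 lines differently, unexplained, and mark the DMSO libraries as NOTX. The dishes of a genotype are not said to come from separate cultures, so p-values measure the spread between dishes, which may be technical, and a difference between the 2 cell populations cannot be told apart from a difference caused by YAP1.

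YAP1 has no DNA-binding domain of its own and switches genes on as a coactivator, under the control of the Hippo kinases. The kinases STK3 and STK4 (MST) activate LATS1 and LATS2, which phosphorylate YAP1 and its paralog TAZ (gene WWTR1) and keep them out of the nucleus. Unphosphorylated YAP1 binds the TEAD DNA-binding factors and switches on genes such as CTGF, CYR61, ANKRD1 and AMOTL2, and it is known in carcinoma cells for effects on growth, adhesion, matrix and survival under kinase inhibitors.

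The 6 libraries resembled each other. Their FPKM summed to 606969 to 617762 in YAP1 KO cells and to 604392 to 620813 in CTRL cells. Absolute depth is unknown. Depth relative to the first CTRL library was estimated from the most frequent ratio of values between libraries, among genes under 0.1 FPKM in both. It was 0.959 to 1.17 in YAP1 KO and 0.985 to 1.01 in CTRL libraries. The simple epithelial markers EPCAM, CDH1, KRT7, KRT8, KRT18 and KRT19 were all present, with summed levels of 5874 to 6051 FPKM in YAP1 KO and 6495 to 6643 FPKM in CTRL libraries. Of the fibroblast markers only COL1A1 (1 of 8) passed the filter, at under 2 FPKM, of the leukocyte markers only CD68 (1 of 8), and of the endothelial markers none of 5. The leukocyte markers summed to 37.2 to 41.2 FPKM in YAP1 KO and 35.4 to 37.5 FPKM in CTRL libraries, with MS4A1 listed at 0 and PTPRC at most at 0.0416 FPKM. The lung lineage markers SFTPB and SFTPC were listed at 0 in all 6 libraries, NKX2-1 reached at most 0.0566 FPKM and NAPSA at most 0.436 FPKM, so the lung origin of the line did not show in these genes.

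YAP1 mRNA itself checks the labels. It stood at 12.2, 12.4 and 11.6 FPKM in the YAP1 KO libraries, against 43.3, 42.5 and 42.9 FPKM in the CTRL libraries. The groups were far apart and the dishes of each nearly equal. YAP1 KO cells thus kept 28.1% of the CTRL level, a difference of -1.75 (SE 0.05) on the log2(FPKM + 1) scale used for all differences below (limma, Benjamini-Hochberg adjusted p = 1.38e-10). A transcript level does not show whether protein is made, and the remaining reads were not placed along the gene.

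Many genes differed, mostly by little. At an adjusted p under 0.05 (limma over all 12111 members), 4991 members (41.2%) were called, 2488 higher (20.5%) and 2503 lower (20.7%) in YAP1 KO cells. The median difference over all members was 0.01. Only 283 genes rose and 410 fell by 0.5 or more, and 56 rose (0.462%) and 59 fell (0.487%) by 1 or more, which is 2-fold on this scale. With a pseudocount of 0.1 in place of 1 these became 140 and 114, since a smaller pseudocount widens the differences of low genes. The levels of the 3 YAP1 KO libraries lay entirely above those of the 3 CTRL libraries in 3392 members (28%) and entirely below in 3099 (25.6%). Each count for a gene list given below is to be read against 20.5% and 20.7%, since a list with such shares does not stand out. List members named beyond the fixed rule for named genes were chosen after their values were seen.

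The filter fixed part of these counts. All 6 libraries reached 1 FPKM in 11387 members, while 105 members passed only through the YAP1 KO libraries and 75 only through the CTRL libraries. Of the 105, 96 were called higher, and of the 75, 69 were called lower, which the way they passed largely sets. Without these 180 members the calls were 2392 higher and 2434 lower. Ranked from the highest, the value at rank 3 of a gene's 6 lay at 1.00004 FPKM in the member nearest the limit and at 0.999692 FPKM in the nearest row left out.

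**Figure D1:**
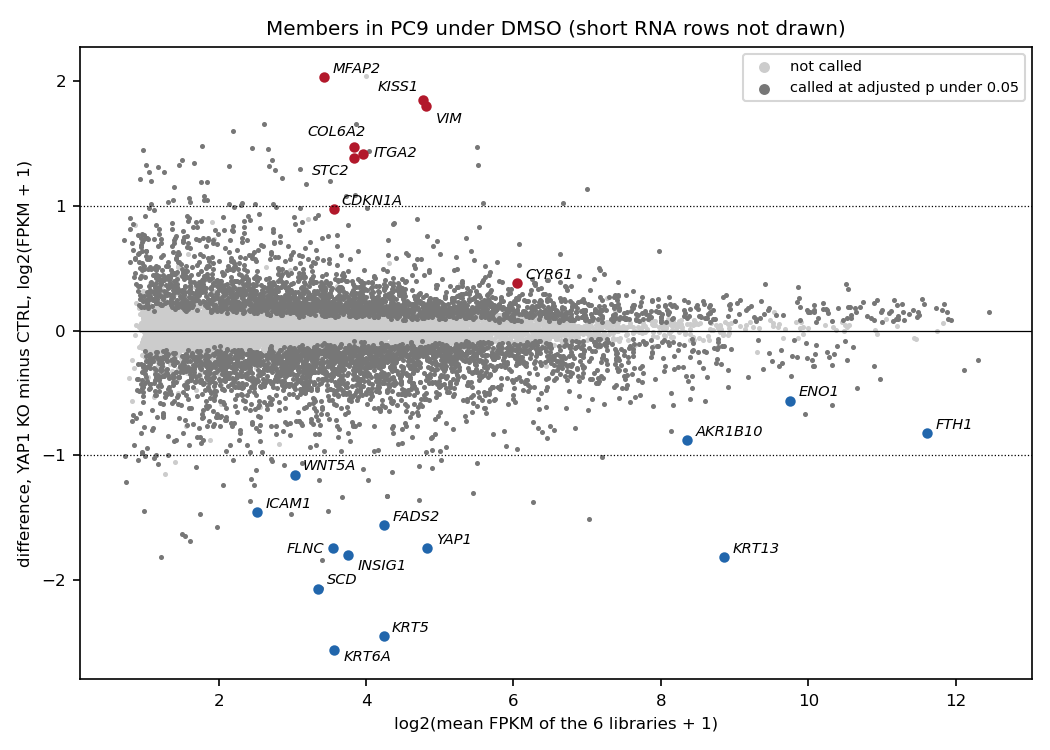
Each point is 1 gene with FPKM of 1 or more in at least 3 of the 6 PC9 DMSO libraries. The x axis is log2 of the mean FPKM over the 6 libraries plus 1, the y axis the difference in log2(FPKM + 1), YAP1 KO minus CTRL. Rows of short RNAs are not drawn. Dark grey points were called at an adjusted p under 0.05 and dotted lines mark 2-fold. YAP1 lies at -1.75, KRT6A at -2.57 and SCD at -2.07, and MFAP2 at 2.04 and VIM at 1.80 stand at the other end.

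Among Hippo components more fell than rose, YAP1 itself included. Of 35 listed components, 33 were members, of which 14 fell and 3 rose, with a median of -0.10. The strongest falls were in partners and regulators of YAP1. AMOT, an angiomotin that tethers YAP1 at junctions, stood at 3.61, 3.77 and 3.93 FPKM in YAP1 KO libraries, against 8.63, 9.32 and 9.24 FPKM in CTRL libraries (-1.08, SE 0.05, adjusted p = 1.49e-08). VGLL1, a cofactor that competes for TEAD, was at 45, 41.9 and 45.2 FPKM in YAP1 KO and 82.5, 87 and 89.3 FPKM in CTRL libraries (-0.95, adjusted p = 4.76e-09). Neither gene's groups overlapped. AJUBA, a LIM protein that restrains LATS kinases, fell by 0.77 on the log2 scale, and the angiomotins AMOTL1 and AMOTL2 fell by 0.51 and 0.49. In these bulk libraries fewer cells with a transcript and less of it per cell cannot be told apart.

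The kinase and DNA-binding steps changed less. LATS2, itself a YAP1 target, was at 0.926, 1.27 and 1.15 FPKM in YAP1 KO cells, against 2.2, 1.76 and 1.9 FPKM in CTRL cells (-0.48, adjusted p = 0.000229), while LATS1 differed by 0.08 and was not called. The upstream kinase STK3 fell by 0.35. Among the TEAD factors TEAD4 fell (-0.28, adjusted p = 0.000236), TEAD3 fell by 0.26, TEAD2 rose by 0.44, and TEAD1 was not called (-0.11, adjusted p = 0.152). WWTR1, which encodes TAZ, stood at 20.7, 20.2 and 20.0 FPKM in YAP1 KO libraries and at 18.8, 18.4 and 19 FPKM in CTRL libraries. Its 3 YAP1 KO values were all the higher ones, but the difference of 0.11 (SE 0.04) missed the threshold at an adjusted p of 0.0531 and passed it with the 6 DMSO libraries alone (0.0226).

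The canonical YAP1 targets did not fall as a group in PC9 under DMSO. Of 22 listed YAP/TEAD targets 21 were members. Of these 9 rose, 7 fell and 5 were not called, with a median of -0.04. The sign of this median turned with the filter, to 0.13 at 5 FPKM, where 8 of 15 rose and 3 fell, and to 0.03 with 1 FPKM in all 6 libraries, where 8 of 18 rose and 5 fell. CTGF, CYR61 and ANKRD1, which are often used to read YAP1 activity, were among those that rose. FOXF2 and NUAK2 passed the filter only through the group in which they were high.

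Promoters of 9 of these targets hold GGAATG, letters that TEAD factors are known to bind. Windows are given for 5 named targets with matches wholly upstream of the start. These genes moved in both directions. The sequences are RefSeq's (build GRCh38.p14), upstream of the annotated start, 5′ to 3′ on the gene's strand, and capitals mark GGAATG or its reverse complement. CTGF (chr6:131951450-131951553), ANKRD1 (chr10:90921198-90921319) and AMOTL2 (chr3:134374499-134374528) lie on the minus strand, AXL (chr19:41226531-41226560) and FOXF2 (chr6:1389368-1389397) on the plus strand.
CTGF: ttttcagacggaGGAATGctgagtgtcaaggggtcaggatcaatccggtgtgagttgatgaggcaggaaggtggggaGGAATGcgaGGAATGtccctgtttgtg
ANKRD1: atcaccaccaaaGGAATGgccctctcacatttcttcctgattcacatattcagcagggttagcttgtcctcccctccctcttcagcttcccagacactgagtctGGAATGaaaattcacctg
AMOTL2: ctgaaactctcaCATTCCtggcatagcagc
AXL: cagactttgcacCATTCCactccctccgct
FOXF2: gaggccgcgagaGGAATGaagagcgaggag
GGAATG on either strand occurred in 9 of 18 promoters (250 bases before to 50 after the start) of the 16 listed targets in the table, or 50%, and in 14.0% of all 35116 promoters. A match is a description of the letters and not of binding. Not matched in the promoter table were CYR61, ASAP1, CRIM1, GADD45A, DOCK5 and ARHGEF17.

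CTGF (CCN2), a secreted matricellular protein, was at 11.5, 11 and 13.2 FPKM in YAP1 KO cells, against 8.47, 9.31 and 8.86 FPKM in CTRL cells (0.38, SE 0.09, adjusted p = 0.00459). CYR61 (CCN1), its close relative, was at 71.4, 74.5 and 75.8 FPKM in YAP1 KO and 56.3, 54.7 and 58.4 FPKM in CTRL libraries (0.38, SE 0.06, adjusted p = 0.000257). In both genes every YAP1 KO dish was above every CTRL dish. ANKRD1, a nuclear ankyrin repeat protein, stood at 6.79, 7.25 and 8.04 FPKM in YAP1 KO libraries and at 4.74, 5.05 and 5.49 FPKM in CTRL libraries (0.46, adjusted p = 0.00215), a call that was lost at a pseudocount of 0.1 or 0.01. The receptor kinase AXL rose to 1.21 times and NT5E, the ecto-nucleotidase CD73, to 1.44 times the CTRL mean (adjusted p = 6.58e-05 and 1.12e-06).

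Among the targets that fell, AMOTL2 stood at 15.3, 15.4 and 15 FPKM in YAP1 KO libraries, against 21.2, 21.6 and 22.7 FPKM in CTRL libraries (-0.49, adjusted p = 4.12e-06). CCDC80, a secreted matrix protein, was at 15.9, 17.2 and 15.8 FPKM in YAP1 KO and 27.6, 28.3 and 29.5 FPKM in CTRL libraries (-0.77, SE 0.04, adjusted p = 1.63e-08), and no library of one group reached the range of the other. ARHGEF17, an exchange factor for small GTPases, fell to 60.4% of the CTRL mean (adjusted p = 5.9e-05). FOXF2, a forkhead factor whose way through the filter sets its direction, was at 1.95, 2.03 and 1.84 FPKM in YAP1 KO cells, against 0.263, 0.178 and 0.202 FPKM in CTRL cells.

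The clearest loss in YAP1 KO cells was in the genes that make cholesterol. All 20 listed cholesterol biosynthesis enzymes were members and all 20 had a difference below 0. Of these 17 fell and none rose, with a median of -0.76 beside 0.01 over all members. PMVK, NSDHL and EBP were not called. Of 16 members of a list of sterol uptake, export and regulation genes 9 fell and 1 rose, with a median of -0.31. One of the 9 passed the filter through CTRL cells only, and with a filter at 5 FPKM 5 of 12 fell, with a median of -0.03. The pathway runs from acetyl-CoA through mevalonate and squalene to cholesterol, and is switched on together with fatty acid desaturation by the SREBP factors when membranes run short of sterol.

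Promoter windows of 4 sterol genes and of SCD, a fatty acid desaturase, are shown because they hold both the core letters of a sterol regulatory element and a CCAAT box, the pair by which SREBP and NF-Y are known to act together. Capitals mark CACNCCA and the nearest CCAAT, either strand, and the source and orientation are as above. No limit was set on the spacing, so a window does not show that the 2 act as a pair. The matches began 186 and 113 bases before the start in SCD, and 74 and 68 bases before it in TM7SF2. All 5 lie on the plus strand, INSIG1 at chr7:155297659-155297724, SREBF2 at chr22:41832961-41833015, MSMO1 at chr4:165327502-165327546, TM7SF2 at chr11:65111786-65111822 and SCD at chr10:100347035-100347138.
INSIG1: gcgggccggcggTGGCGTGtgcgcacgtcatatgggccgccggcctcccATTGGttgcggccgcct
SREBF2: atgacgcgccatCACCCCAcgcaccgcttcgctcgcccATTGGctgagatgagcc
MSMO1: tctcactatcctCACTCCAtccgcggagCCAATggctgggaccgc
TM7SF2: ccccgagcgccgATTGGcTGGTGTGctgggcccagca
SCD: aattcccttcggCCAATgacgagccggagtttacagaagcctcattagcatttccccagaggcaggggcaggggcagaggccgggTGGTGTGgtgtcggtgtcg
CACNCCA occurred in 8 of 20 promoters (40%) of the 15 biosynthesis enzymes in the promoter table and in 17.6% of all promoters. CCAAT occurred in 15 of those 20 (75%) and in 34.6% of all. For 23 promoters of the uptake, export and regulation list, which holds INSIG1 and SREBF2, the shares were 34.8% with CACNCCA and 30.4% with CCAAT, the second below that of all promoters. For 31 promoters of the fatty acid list, which holds SCD, they were 32.3% and 45.2%. For the 18 YAP/TEAD target promoters the numbers were 5 with CACNCCA and 3 with CCAAT. Not matched were, among others, ACAT2, FDFT1, SQLE, ABCG1, FASN and HSD17B12.

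The regulators of the pathway fell with the enzymes. INSIG1, the membrane protein that holds SREBP back when sterol is plentiful and is itself an SREBP target, stood at 5.24, 4.21 and 5.52 FPKM in YAP1 KO libraries, against 19, 18.1 and 22.7 FPKM in CTRL libraries (-1.80, SE 0.09, adjusted p = 1.91e-08). SREBF2, which encodes SREBP-2, was at 11.5, 11.2 and 10.9 FPKM in YAP1 KO and 21.6, 22.9 and 23.6 FPKM in CTRL libraries (-0.96, SE 0.04, adjusted p = 7.35e-09). YAP1 KO dishes kept 25.1% of the CTRL mean of INSIG1 and 49.4% of that of SREBF2, with no overlap. SREBF1 fell by 0.53, whereas SCAP, INSIG2 and the site proteases MBTPS1 and MBTPS2 were not called. NPC2, a lysosomal carrier of cholesterol, was the listed gene that rose, by 0.17.

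The largest falls among the enzymes were in steps after squalene, although NSDHL and EBP, of the same stretch, were not called. DHCR7, which makes cholesterol from its direct precursor, was at 11.3, 12.1 and 11.9 FPKM in YAP1 KO and 25.6, 26.8 and 28.8 FPKM in CTRL cells (-1.14, SE 0.05, adjusted p = 9.42e-09). The reductase TM7SF2 was at 2.34, 2.83 and 2.55 FPKM in YAP1 KO and 6.73, 6.74 and 6.83 FPKM in CTRL cells (-1.12, adjusted p = 1.75e-07). In both the YAP1 KO dishes lay within a narrow band well under the CTRL dishes. MSMO1, a sterol demethylation enzyme, fell to 49.8% and HMGCS1, at the entry of the mevalonate pathway, to 65.2% of the CTRL mean (adjusted p = 1.89e-07 and 1.65e-06). SQLE, which oxidises squalene, fell by 0.76 and LSS, which closes its rings, by 0.80.

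Fatty acid genes fell in the same direction. Of 20 members of the fatty acid list 14 fell and 1 rose (GPAM, 0.16), with a median of -0.41. SCD, the desaturase that makes oleate, stood at 3.06, 2.6 and 3.08 FPKM in YAP1 KO libraries, against 14.4, 14.5 and 17.6 FPKM in CTRL libraries (-2.07, SE 0.09, adjusted p = 4.76e-09). FADS2, a desaturase of polyunsaturated fatty acids, was at 8.52, 8.61 and 8.73 FPKM in YAP1 KO and 26.7, 27 and 28.6 FPKM in CTRL libraries (-1.56, SE 0.05, adjusted p = 3.79e-10). Its neighbour in the pathway FADS1 fell to 49% and the elongase ELOVL6 to 59.9% of the CTRL mean (adjusted p = 1.17e-08 and 1.15e-07). The desaturases thus fell most, the synthases FASN and ACACA fell by 0.65 and 0.58, and ACLY, which supplies cytosolic acetyl-CoA, was not called at -0.06.

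**Figure D2:**
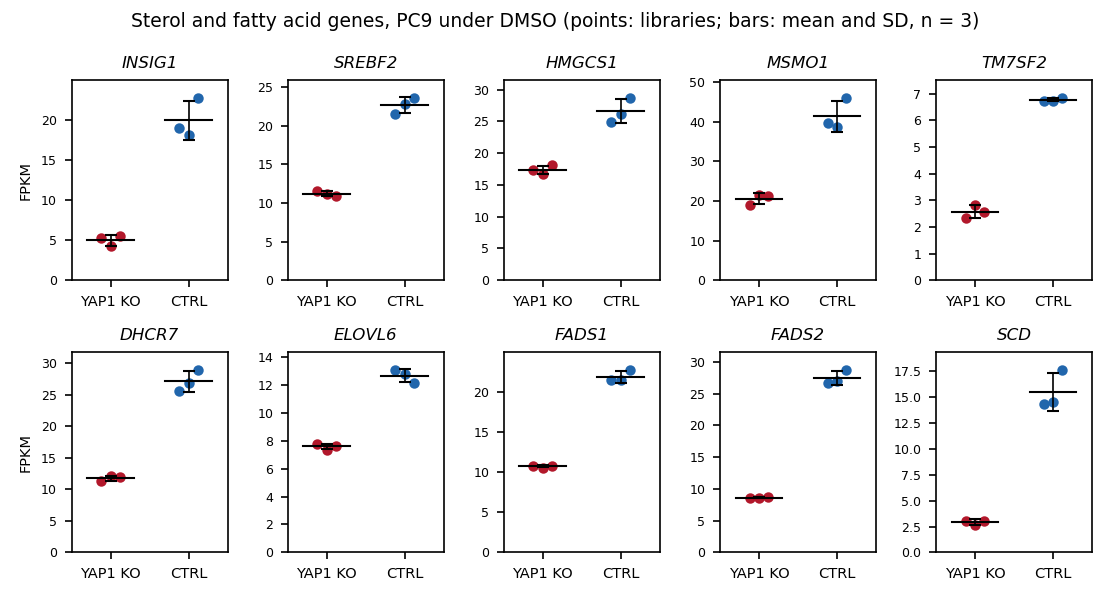
FPKM (y axes, from 0) of 10 sterol and fatty acid genes in the 3 YAP1 KO (left, red) and 3 CTRL (right, blue) PC9 libraries in DMSO; points are libraries and bars the mean and SD. In every panel the YAP1 KO libraries lie below the CTRL libraries, from 18.8% of the CTRL mean for SCD to 65.2% for HMGCS1.

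Keratins were the other large loss. All 15 members among 21 listed keratins were called, 12 lower and 3 higher, with a median of -0.24. The keratins of basal and stratified epithelium fell most. KRT5 stood at 5.02, 4.75 and 4.68 FPKM in YAP1 KO libraries, against 31.9, 32.4 and 28.6 FPKM in CTRL libraries (-2.46, SE 0.07, adjusted p = 1.45e-10). KRT6A was at 2.86, 2.03 and 2.34 FPKM in YAP1 KO and 20.0, 20.2 and 17.3 FPKM in CTRL libraries (-2.57, adjusted p = 9.13e-09), a gene whose near-identical copies KRT6B and KRT6C may share its reads. KRT13, abundant in CTRL cells, was at 202, 206 and 203 FPKM in YAP1 KO and 706, 721 and 738 FPKM in CTRL libraries (-1.82, adjusted p = 7.51e-13). The YAP1 KO means were 15.6%, 12.6% and 28.3% of the CTRL means of KRT5, KRT6A and KRT13, with no overlap of dishes.

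The keratins of simple epithelium moved less. KRT8 fell by 0.46 and KRT19 by 0.24, while KRT7 was higher, at 1752, 1772 and 1785 FPKM in YAP1 KO cells, against 1543, 1576 and 1533 FPKM in CTRL cells (0.19, adjusted p = 4.33e-05). KRT81, a hair-type keratin, also rose and was at 2.91, 3.31 and 2.9 FPKM in YAP1 KO cells, against 1.31, 1.27 and 1.22 FPKM in CTRL cells (0.83, adjusted p = 1.59e-05), although its close copy KRT86, which passed the filter only through YAP1 KO cells, may share reads.

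Junction genes fell modestly. All 32 listed epithelial junction and identity genes were members, of which 20 fell and 2 rose, with a median of -0.16. LLGL2, a basolateral polarity protein, was at 14, 14.5 and 13.1 FPKM in YAP1 KO cells and at 21.5, 22.2 and 20.7 FPKM in CTRL cells (-0.60, adjusted p = 2.44e-06). ELF3, an epithelial ETS factor, was at 20.9, 21.2 and 21.9 FPKM in YAP1 KO and 31.3, 31 and 33 FPKM in CTRL cells (-0.55, adjusted p = 3.29e-07). The groups were apart in both. The tight junction genes CGN and CLDN3 fell by 0.45 and 0.44. CDH1, which encodes E-cadherin, fell by only 0.16 (adjusted p = 0.0056), and EPCAM was not called at 0.05.

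Of the mesenchymal genes more rose than fell, and many were not expressed. Of 18 listed EMT factors and mesenchymal genes 10 were members, of which 5 rose and 2 fell, with a median of 0.28. VIM, the intermediate filament vimentin, stood at 43.4, 41.3 and 43.2 FPKM in YAP1 KO libraries, against 11, 11.7 and 11.8 FPKM in CTRL libraries (1.80, SE 0.14, adjusted p = 1.07e-06). TWIST2, a helix-loop-helix EMT factor, was at 9.62, 6.56 and 8.97 FPKM in YAP1 KO and 2.85, 2.43 and 1.91 FPKM in CTRL libraries (1.46, SE 0.18, adjusted p = 3.52e-05). The groups did not overlap in either, though TWIST2 varied more between dishes. SNAI2 (Slug), which represses E-cadherin, was at 7.79, 7.34 and 8.64 FPKM in YAP1 KO and 3.95, 4.84 and 4.08 FPKM in CTRL libraries (0.76, adjusted p = 4.46e-05), and SNAI1 rose by 0.42. ZEB1, ZEB2 and TWIST1 were not members. CDH2 (N-cadherin) was not called at 0.14, and TAGLN, an actin-binding protein, and S100A4 fell by 0.71 and 0.50.

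Matrix genes rose more often than they fell. Of 29 members among 46 listed extracellular matrix genes 16 rose and 5 fell, with a median of 0.18, counting COL13A1 and COL4A1, which passed the filter through 1 group only. MFAP2, a microfibril glycoprotein, had the largest rise of the named genes. It stood at 17.4, 15.5 and 16 FPKM in YAP1 KO libraries, against 3.94, 1.97 and 4.08 FPKM in CTRL libraries (2.04, SE 0.15, adjusted p = 5.78e-07). COL6A2, a collagen VI chain, was at 19.5, 20.1 and 20.2 FPKM in YAP1 KO and 6.8, 6.56 and 6.23 FPKM in CTRL libraries (1.48, adjusted p = 1.66e-09), and its partner chain COL6A1 rose by 0.76. The fibulin EFEMP1 rose to 2.07 times and LTBP2, which is related to the binders of latent TGF-beta, to 1.73 times the CTRL mean (adjusted p = 1.55e-07 and 5.17e-08). Among the 5 that fell were the proteoglycans AGRN, by 0.71, and HSPG2, by 0.70, and the collagen COL4A1, by 0.69. The fibroblast markers DCN, LUM and PDGFRA were listed at 0 in all 6 libraries, and the 8 summed to 1.52 to 1.71 FPKM in YAP1 KO and 1.38 to 1.59 FPKM in CTRL libraries.

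Integrin subunits, which anchor cells to that matrix, also rose, 8 of 13 members against 2 that fell, with a median of 0.19. ITGA2, the collagen-binding alpha 2 chain, stood at 22.3, 21.9 and 20.8 FPKM in YAP1 KO libraries, against 8.02, 7.72 and 6.8 FPKM in CTRL libraries (1.41, SE 0.06, adjusted p = 6.01e-09). ITGB6, whose product activates latent TGF-beta, rose to 1.54 times and ITGA5, of the fibronectin receptor, to 1.35 times the CTRL mean (adjusted p = 9.83e-07 and 0.000471). Actin and focal adhesion genes were mixed, with 6 of 27 higher and 11 lower and a median of -0.06. The lower count was 5 in the fit of all 24 libraries, and 6 or 7 when any DMSO library other than CTRL replicate 3 was left out. FLNC, filamin C, had the largest difference of that list, at 4.4, 4.32 and 4.34 FPKM in YAP1 KO libraries, against 16.9, 17.7 and 16.4 FPKM in CTRL libraries (-1.75, adjusted p = 8.26e-10), while PDLIM7, a LIM protein of stress fibres, rose by 0.47 and the tropomyosin TPM1 by 0.29.

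**Figure D3:**
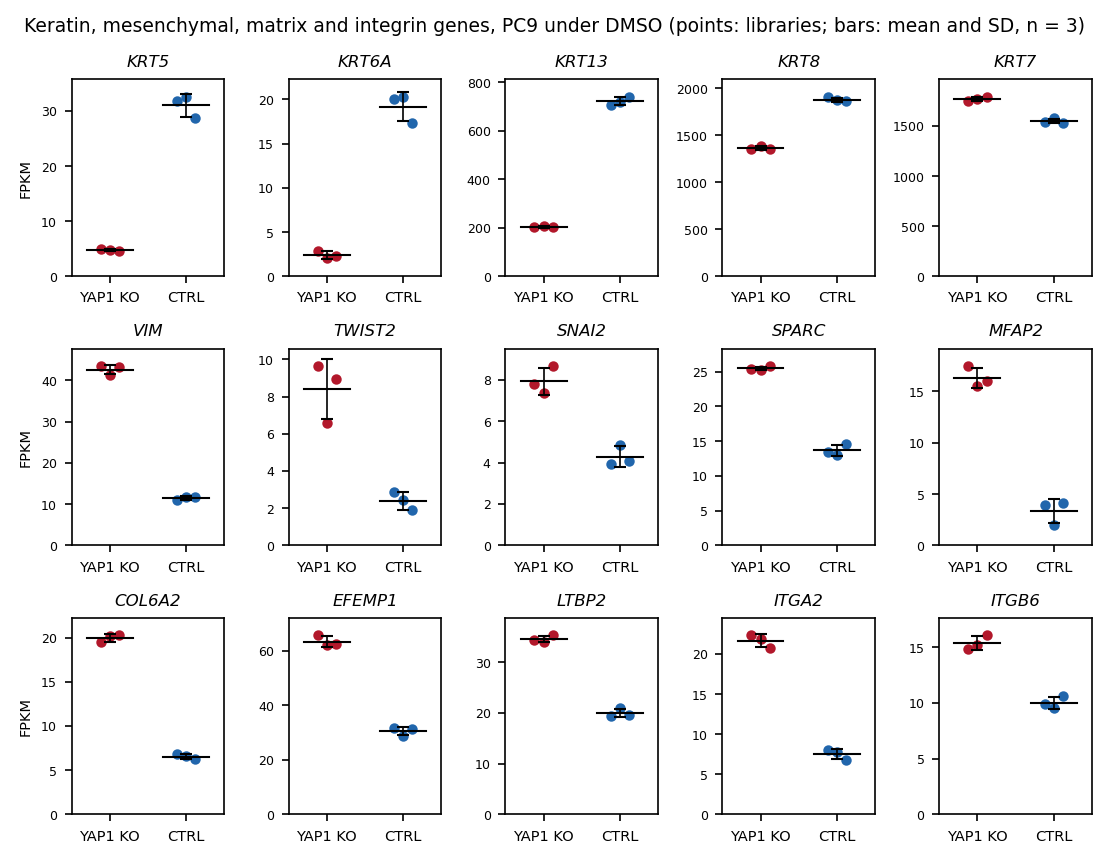
FPKM (y axes, from 0) of 5 keratin, 4 mesenchymal, 4 matrix and 2 integrin genes in the 3 YAP1 KO (left, red) and 3 CTRL (right, blue) PC9 libraries in DMSO, with the mean and SD as bars. KRT5, KRT6A, KRT13 and KRT8 lie lower in YAP1 KO cells, and KRT7 and the other 10 genes lie higher, from 1.14 times the CTRL mean for KRT7 to 4.89 times for MFAP2.

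Proteases and their inhibitors were next. Of 16 members among 28 listed genes 8 rose and 2 fell, with a median of 0.16. TIMP1 rose by 0.57, whereas its relative TIMP3 was at 20.1, 18.9 and 18.4 FPKM in YAP1 KO and 31.2, 31.2 and 31.1 FPKM in CTRL libraries (-0.68, adjusted p = 1.86e-07). ADAM19, a membrane metalloprotease that passed the filter only through YAP1 KO cells, was at 2.37, 2.32 and 2.47 FPKM in YAP1 KO and 0.494, 0.343 and 0.379 FPKM in CTRL cells.

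TGF-beta and BMP genes rose more often than they fell. Of 31 members among 38 listed, 16 rose and 2 fell, with a median of 0.24. Over the alternatives, some of which test fewer genes, 9 to 19 rose and 2 fell, with a median of 0.16 to 0.29. The activin subunit INHBA stood at 25.5, 26.2 and 26.2 FPKM in YAP1 KO libraries, against 14.7, 12.9 and 13.9 FPKM in CTRL libraries (0.87, SE 0.05, adjusted p = 7.21e-08). The subunit INHBB moved the other way, at 17.3, 18.5 and 18.3 FPKM in YAP1 KO and 31.4, 30.9 and 32 FPKM in CTRL libraries (-0.77, adjusted p = 2.58e-08). In every YAP1 KO dish INHBA was above, and INHBB below, all CTRL dishes. Extracellular and membrane inhibitors rose, with the BMP antagonist NOG at 2.26 times and the pseudoreceptor BAMBI at 1.95 times the CTRL mean (adjusted p = 1.63e-06 and 6.56e-06). The intracellular feedback genes SKIL and SMAD7 rose by 0.64 and 0.52, the receptors BMPR2 and ACVR1B by 0.42 and 0.37, and the targets ID1 and ID3 by 0.44 and 0.40. ID4 was the other gene that fell, by 0.45. The activin antagonist FST, at 0.74, passed the filter only through YAP1 KO cells.

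Of 21 members among the WNT genes 7 rose and 3 fell, with a median of 0.05. WNT5A, a ligand of the non-canonical branch, had the largest difference, at 4.33, 3.76 and 4.1 FPKM in YAP1 KO libraries, against 9.88, 10.5 and 10.4 FPKM in CTRL libraries (-1.16, SE 0.06, adjusted p = 1.61e-08). The receptors LRP5 and LGR4 fell by 0.49 and 0.48, and DKK1, a secreted WNT inhibitor, rose to 167, 174 and 176 FPKM in YAP1 KO cells, against 126, 119 and 133 FPKM in CTRL cells (0.45, adjusted p = 1.92e-06).

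The output genes of the MAPK pathway, which EGFR drives in these cells, were more often higher than lower in YAP1 KO cells. Of 17 members among 20 listed 10 rose and 3 fell, with a median of 0.23. With a pseudocount of 0.01, 5 of the 17 rose, and with a filter at 5 FPKM, 5 of the 12 left. DUSP6, the phosphatase that switches off ERK and is induced by it, stood at 8.21, 9.32 and 7.96 FPKM in YAP1 KO libraries, against 4.68, 4.74 and 5.35 FPKM in CTRL libraries (0.68, SE 0.08, adjusted p = 1.82e-05). The feedback inhibitors SPRY1 and SPRY4 rose to 1.64 and 1.63 times the CTRL mean (adjusted p = 0.000883 and 1.89e-05). The calls of DUSP6 and SPRY4 were lost at a pseudocount of 0.01. The ETS factor ETV5 rose by 0.37 and MYC by 0.23, while EPHA2, an ephrin receptor, fell by 0.47 and FOSL1, a subunit of AP-1, fell by 0.37. CCND1, a MAPK-driven cyclin, was at 79.8, 78 and 81.4 FPKM in YAP1 KO and 78.9, 81.6 and 74.6 FPKM in CTRL cells, overlapping groups with no call (0.02, adjusted p = 0.742).

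The EGFR system itself was mixed. EGFR stood at 16.6, 15.4 and 15 FPKM in YAP1 KO libraries, against 17.1, 18.5 and 16.9 FPKM in CTRL libraries (-0.15, SE 0.06, adjusted p = 0.0825), a call missed here but reached with the 6 DMSO libraries alone (0.0467) and without the first CTRL OT library (0.0435). Its ligand HBEGF was at 6.0, 6.84 and 7.55 FPKM in YAP1 KO and 4.06, 4.01 and 4.64 FPKM in CTRL libraries (0.57, adjusted p = 0.000288). Its feedback inhibitor ERRFI1 fell by 0.39. Over the list, 2 of 11 members rose and 4 fell. Other receptor kinases and ligands rose in 9 of 14 members and fell in 3, but each by 0.51 or less. That count includes PROS1, a ligand of AXL that passed the filter only through YAP1 KO cells, at 1.25, 1.29 and 1.2 FPKM in YAP1 KO and 0.651, 0.435 and 0.676 FPKM in CTRL cells, and FGFR4, whose difference of 0.32 was 0.21 without CTRL replicate 2 and lost its call there, without CTRL replicate 3 and without YAP1 KO replicate 2 or 3.

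Inflammatory genes leaned downward. Of 18 members among 34 listed chemokines, cytokines and NF-kappaB targets 8 fell and 3 rose, with a median of -0.12, and most chemokines of the list were not members. ICAM1, an adhesion receptor for leukocytes, stood at 2.04, 2.1 and 2.05 FPKM in YAP1 KO libraries, against 7.42, 7.38 and 7.43 FPKM in CTRL libraries (-1.46, SE 0.05, adjusted p = 5.98e-10). BIRC3, an NF-kappaB induced inhibitor of apoptosis, fell to 41.4% and the macrophage growth factor CSF1 to 60.8% of the CTRL mean (adjusted p = 7.53e-07 and 3.79e-06). IL11 was among those that rose, at 3.36, 3.86 and 4.75 FPKM in YAP1 KO and 2.48, 1.73 and 1.58 FPKM in CTRL cells (0.77, adjusted p = 0.000338).

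Interferon genes were more often lower than higher, with 14 of 35 members lower, 5 higher and a median of -0.07. The lower count ranged from 4 to 14 over the alternatives, of which the filter at 5 FPKM leaves 13 members. IFI6 was at 6.95, 5.64 and 6.65 FPKM in YAP1 KO libraries, against 12.9, 11.9 and 11.7 FPKM in CTRL libraries (-0.83, SE 0.07, adjusted p = 1.9e-06). The antiviral GTPase MX1 and the ubiquitin-like modifier ISG15 fell by 0.69 and 0.61, and SAMD9, an antiviral factor, by 0.70. The signal transducer STAT2 fell by 0.38 and IFI44 rose by 0.49.

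Antioxidant genes controlled by NRF2 fell almost as a block. All 25 listed were members, 21 fell and none rose, with a median of -0.26. AKR1B10, an aldo-keto reductase, stood at 231, 231 and 228 FPKM in YAP1 KO libraries, against 412, 422 and 441 FPKM in CTRL libraries (-0.88, SE 0.03, adjusted p = 8.26e-10). The ferritin heavy chain FTH1, an abundant transcript, was at 2282, 2254 and 2227 FPKM in YAP1 KO and 3919, 4049 and 4029 FPKM in CTRL libraries (-0.83, adjusted p = 1.38e-10), though its many pseudogenes may take part of its reads. The groups did not overlap in either gene. The haem oxygenase HMOX1 fell to 61.8% and AKR1C1 to 65.9% of the CTRL mean (adjusted p = 2.97e-06 and 4.06e-09). AKR1C1 and AKR1C2 are close copies that may share reads. NFE2L2, which encodes NRF2, and its inhibitor KEAP1 were not called.

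Glycolysis genes fell in 16 of 26 members and rose in 3, with a median of -0.13. ENO1, enolase, stood at 691, 702 and 692 FPKM in YAP1 KO libraries, against 1025, 1033 and 1021 FPKM in CTRL libraries (-0.56, SE 0.02, adjusted p = 1.76e-09). The aldolase ALDOC fell to 45.8% and the lactate exporter SLC16A3 to 76% of the CTRL mean (adjusted p = 2.54e-07 and 9.61e-06). TXNIP, which restrains glucose uptake, rose to 1.31 times that mean (adjusted p = 6.62e-06).

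Ribosome biogenesis genes showed the opposite lean, with 13 of 28 members higher and none lower, but the changes were small. Their median was 0.08 and the highest, RRS1, rose by 0.27. Stress response genes lay near the shares of all members (5 of 28 higher, 6 lower). STC2, a secreted glycoprotein induced by stress, was at 19.4, 20.2 and 19.3 FPKM in YAP1 KO libraries, against 6.49, 6.89 and 7.37 FPKM in CTRL libraries (1.38, SE 0.05, adjusted p = 2.47e-09). Lysosome and autophagy genes were 7 of 26 higher and 3 lower. The autophagy kinase ULK1 rose to 1.44 times and the autophagy receptor SQSTM1 fell to 79.9% of the CTRL mean (adjusted p = 3.61e-06 and 4.18e-08).

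Cell cycle genes moved by little. Of 30 G2/M genes 18 fell and none rose, with a median of -0.14, and 11 fell in the fit of all 24 libraries. CDC20, an activator of the anaphase promoting complex, was at 114, 116 and 114 FPKM in YAP1 KO libraries, against 158, 151 and 144 FPKM in CTRL libraries (-0.39, SE 0.05, adjusted p = 2.8e-05). KIF20A, a kinesin of cytokinesis, fell to 73.6% and the proliferation marker MKI67 to 82.7% of the CTRL mean (adjusted p = 1.55e-06 and 0.00118). Of 30 S-phase genes 10 rose and 6 fell, with a median of 0.05. Leaving out any 1 DMSO library left 4 to 6 that rose. GINS3, a subunit of the replicative helicase, rose most, by 0.39. CDKN1A, which encodes the CDK inhibitor p21, stood out at 13.6, 15.3 and 14.9 FPKM in YAP1 KO libraries, against 6.98, 6.82 and 7.04 FPKM in CTRL libraries (0.97, SE 0.07, adjusted p = 3.73e-07). CDKN2C, another CDK inhibitor, fell by 0.48 and CDK6 by 0.32.

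Called shares of p53 target and BCL2 family genes lay near those of all members, with 4 of 24 and 3 of 13 higher and 3 and 2 lower. CDKN1A was the p53 target with the largest rise. BMF, a BH3-only killer protein, was at 1.33, 1.79 and 1.63 FPKM in YAP1 KO libraries and at 1.82, 1.68 and 1.51 FPKM in CTRL libraries (-0.05, SE 0.07, adjusted p = 0.583). BCL2L11, which encodes BIM, was at 3.43, 3.46 and 3.59 FPKM in YAP1 KO and 4.0, 4.17 and 3.43 FPKM in CTRL libraries (-0.11, adjusted p = 0.112). Both pairs of groups overlapped, and BCL2L11 passed the test only without CTRL replicate 3 (-0.18, adjusted p = 0.00834). BAD, a BH3-only protein under survival kinase control, fell to 75.8% and the pore former BAX rose to 1.15 times the CTRL mean (adjusted p = 3.09e-07 and 0.000368). The call of BAX was lost in the fit of all 24 libraries (adjusted p = 0.105).

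Few lung or mucin genes were expressed, 6 of 28 listed. MUC20, a membrane mucin, stood at 13.7, 14.9 and 13.5 FPKM in YAP1 KO libraries, against 26, 28.5 and 27.5 FPKM in CTRL libraries (-0.91, SE 0.05, adjusted p = 3.19e-08). MUC1 fell to 58.7% and the caveolar protein CAV1 to 80.8%, while the progenitor factor SOX9 rose to 1.35 times the CTRL mean (adjusted p = 1.76e-05, 3.61e-06 and 0.000528).

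**Figure D4:**
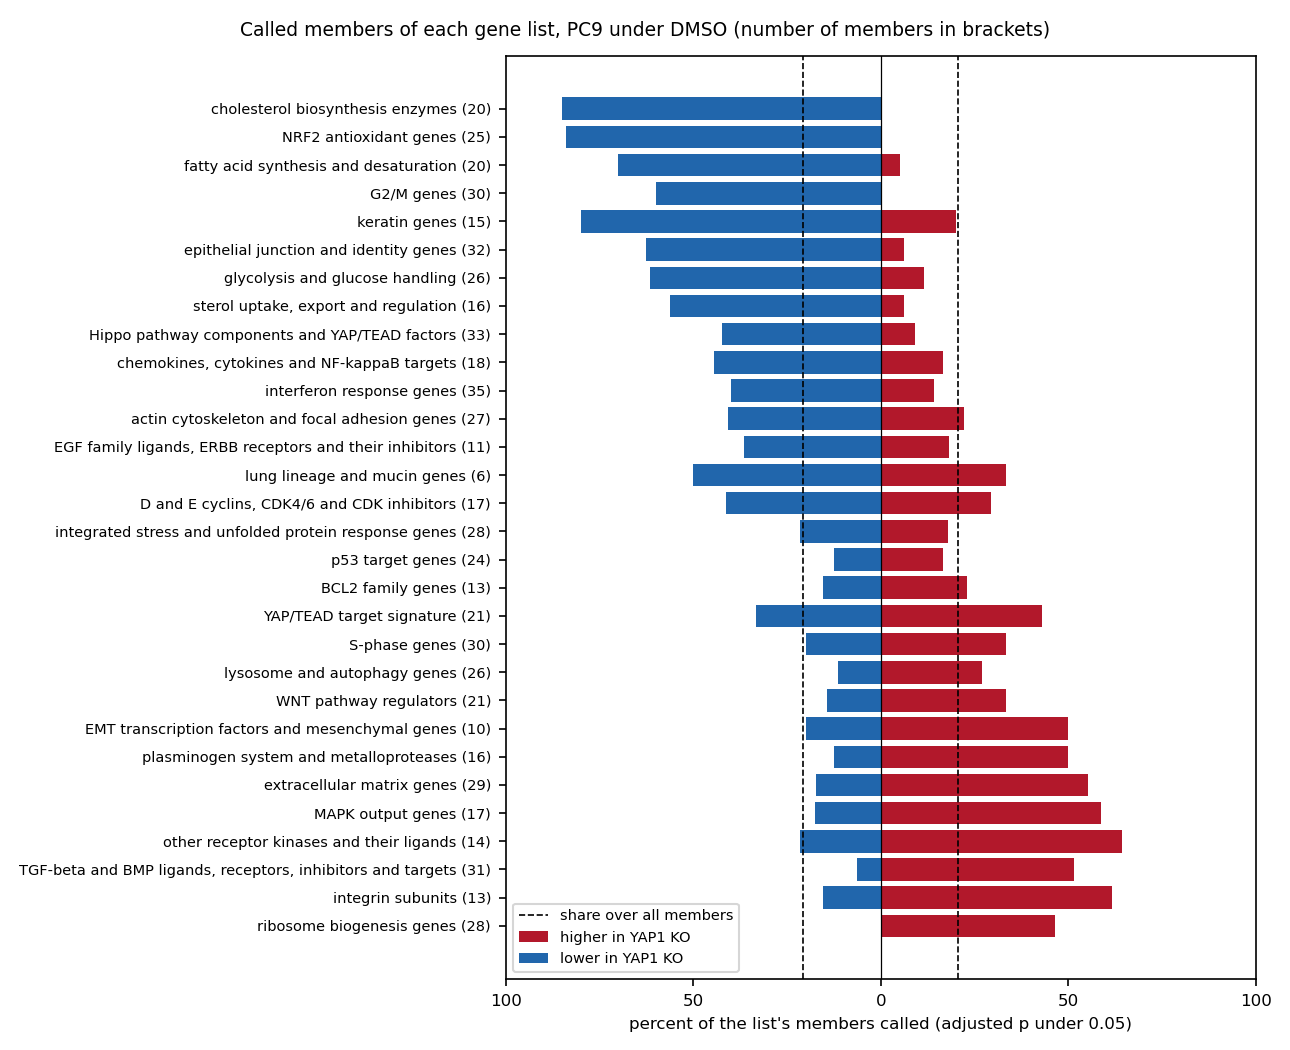
For each gene list, the percent of its members called higher (red, right) and lower (blue, left) in YAP1 KO than in CTRL PC9 cells in DMSO; dashed lines mark the shares over all members, 20.5% and 20.7%. Cholesterol biosynthesis (17 of 20 lower) and NRF2 genes (21 of 25 lower) lie at the top, integrins (8 of 13 higher) and ribosome biogenesis (13 of 28 higher) at the bottom.

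Most of the genes with the largest differences were in none of these lists. Of the 115 members called with a 2-fold change, 24 were in a list and 6 were short RNA rows. KISS1, the precursor of kisspeptin peptides, stood at 38.5, 46.2 and 40.9 FPKM in YAP1 KO libraries, against 10.7, 10.3 and 11.5 FPKM in CTRL libraries (1.85, SE 0.06, adjusted p = 1.01e-09). CA2, carbonic anhydrase 2, was at 8.47, 7.48 and 8.96 FPKM in YAP1 KO and 1.94, 1.61 and 2.31 FPKM in CTRL libraries, and the ribosomal protein paralog RPL22L1 at 65.8, 67.6 and 64.9 FPKM in YAP1 KO and 23.6, 21.7 and 24.1 FPKM in CTRL libraries. Each YAP1 KO dish was above each CTRL dish in all 3 genes. CACNG6, a calcium channel subunit, rose by 1.66, the membrane protein PALM, which passed only through YAP1 KO cells, by 1.48 and FAM171A1 by 1.47. ALPP, placental alkaline phosphatase, fell to 3.3, 3.63 and 3.86 FPKM in YAP1 KO libraries, against 15.3, 15.1 and 16 FPKM in CTRL libraries (-1.84, adjusted p = 6.28e-11), and has a near-identical copy that may share reads.

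The low end also held 3 rows that overlap other genes and are uncertain. MINOS1-NBL1, a readthrough row, ranged over 3.08, 5.22 and 1.35 FPKM in YAP1 KO libraries and 13.9, 12.4 and 21 FPKM in CTRL libraries. PTCD1 was at 0.0016, 0.0018 and 0.00174 FPKM in YAP1 KO and 3.83, 2.77 and 1.41 FPKM in CTRL libraries, and SNURF at 0.000518, 1.06 and 0.00589 FPKM in YAP1 KO and 6.32, 1.29 and 2.85 FPKM in CTRL libraries. PTCD1 passed the filter only through CTRL cells, and values this close to 0 may be failed estimates. The call of SNURF was lost without CTRL replicate 1 and without YAP1 KO replicate 1 or 3. H2AFY2, a histone variant that passed only through YAP1 KO cells, was at 1.96, 1.92 and 1.78 FPKM in YAP1 KO and 0.0879, 0.0595 and 0.0289 FPKM in CTRL libraries, and C8orf4 rose by 1.60.

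Whether these differences were particular to DMSO was tested against the same genotypes in OT, as the PC9 difference in DMSO minus that in OT. It was positive in 1739 members (14.4%) and negative in 1546 (12.8%) at an adjusted p under 0.05. Which sign was the more frequent turned with the scaling of the libraries. The counts were 1364 positive and 1978 negative with the FPKM of each library scaled to the same sum, 1268 and 2257 with short RNA rows left out of that sum, and 2099 and 1259 with median-of-ratios scaling. In OT 3408 members (28.1%) were higher and 3146 (26%) lower in YAP1 KO cells. Of the 4991 genes called in DMSO 3123 were called the same way in OT, which is 62.6% of the DMSO calls and 47.7% of the 6554 OT calls, and 389 were called the opposite way. Of the genes changed 2-fold in DMSO, 49 of 56 rose and 52 of 59 fell in OT too. FPKM summed to 566982 to 576571 in the YAP1 KO and to 583614 to 593526 in the CTRL libraries in OT, below those in DMSO.

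The cholesterol biosynthesis genes were low in YAP1 KO cells whatever the treatment. In OT all 20 enzymes fell, with a median of -0.89 beside -0.76 in DMSO. For 9 of them the fall in OT was the larger by the test. Among 16 genes of sterol uptake, export and regulation, 7 fell and 4 rose in OT, with a median of -0.13 beside -0.31 in DMSO. SCD, INSIG1 and FADS2 differed by -2.05, -1.86 and -1.53 in OT and by -2.07, -1.80 and -1.56 in DMSO, and none of the 3 gave a called difference between treatments (adjusted p = 0.924, 0.802 and 0.778). KRT6A, COL6A2 and SPARC, a matrix glycoprotein, likewise gave no called difference, at -2.56, 1.51 and 0.86 in OT and -2.57, 1.48 and 0.85 in DMSO. YAP1 itself differed by -1.55 in OT, and the gap to DMSO of -0.20 passed at an adjusted p of 0.0417 but was lost under 17 of 22 alternatives, with an adjusted p of up to 0.1495.

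YAP1 targets behaved otherwise. In OT 17 of the 21 members fell and 1 rose, with a median of -0.37, and in 14 the DMSO difference was the higher one by the test. CYR61 differed by 0.38 in DMSO and -1.22 in OT (DMSO minus OT 1.60, SE 0.08, adjusted p = 1.52e-07), and CTGF by 0.38 in DMSO and -1.08 in OT (1.46, adjusted p = 6.11e-06). In OT libraries CYR61 was at 37.7, 40.0 and 36.1 FPKM in YAP1 KO and 96.9, 91.5 and 80.4 FPKM in CTRL cells. EFEMP1 (1.82), DKK1 (1.19) and NT5E (0.93) turned in the same manner, higher in YAP1 KO cells in DMSO and lower in OT.

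Other groups also depended on treatment. BMF differed by -0.05 in DMSO and by 1.92 in OT (DMSO minus OT -1.97, adjusted p = 9.86e-08), and BCL2L11 by -0.11 and 0.59 (-0.71, adjusted p = 3.15e-05). Of the 25 NRF2 genes, of which 21 fell in DMSO, 9 were higher and 9 lower in OT, and 20 gave a negative DMSO minus OT difference, as AKR1B10 with -0.91 (adjusted p = 5.18e-08). MUC20 fell in DMSO but differed by 0.31 in OT (-1.22, adjusted p = 2.23e-07). S-phase genes, of which 10 rose and 6 fell in DMSO, fell in 29 of 30 in OT, and 29 of 30 gave a called positive difference.

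The same genotype comparison in HCC4006 in DMSO gave a test of what was particular to PC9. Of the 12111 members 10951 also passed the filter in HCC4006, where 1575 rose (14.4%) and 1169 fell (10.7%) in YAP1 KO cells. The PC9 minus HCC4006 difference was positive in 1485 (13.6%) and negative in 1926 (17.6%) at an adjusted p under 0.05. Of the 4527 PC9 calls among these genes 760 were called the same way in HCC4006, which is 16.8% of the PC9 calls and 27.7% of the 2744 HCC4006 calls, and 556 were called the opposite way. The HCC4006 calls came from the fit of all 24 libraries and the PC9 calls from that of the 12 PC9 libraries. The median residual SD, the spread left between dishes, was 0.080 and 0.068, so these shares compare fits of unlike sensitivity. In the fit of all 24, PC9 calls over the 12111 members were 2123 higher and 2232 lower, against 2488 and 2503. Each line has 1 YAP1 KO and 1 CTRL population in the table, so line and population cannot be told apart.

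YAP1 fell in both lines, with differences of -1.75 in PC9 and -1.88 in HCC4006 (PC9 minus HCC4006 0.13, adjusted p = 0.328). AMOTL2 (-0.46 in HCC4006), CCDC80 (-0.85), IFI6 (-0.90) and KRT8 (-0.39) also fell in both lines without a called difference between them, and BAMBI (0.64) rose in both. ICAM1 fell in both, by more in PC9 (-0.58 in HCC4006, difference -0.88, adjusted p = 6.77e-08).

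The sterol response was not shared. In HCC4006 the 20 cholesterol enzymes had a median of -0.04 with 1 higher and 3 lower, and 17 of 20 were lower in PC9 by the test of the difference. SCD stood at 44.2, 45.4 and 46 FPKM in HCC4006 YAP1 KO libraries and at 44.5, 43.6 and 49.5 FPKM in HCC4006 CTRL libraries (-0.02, PC9 minus HCC4006 -2.05, adjusted p = 9.45e-11). INSIG1 differed by -0.09 there, with a PC9 minus HCC4006 difference of -1.71 (adjusted p = 1.36e-09).

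Several target and matrix genes went opposite ways in the lines. ANKRD1 differed by -1.36 in HCC4006 (PC9 minus HCC4006 1.82, adjusted p = 9.04e-10), CYR61 by -0.70 (1.08, adjusted p = 1.14e-09) and CTGF by -0.63 (1.01, adjusted p = 9.89e-07), all lower in HCC4006 YAP1 KO cells. SPARC stood at 27.5, 26.2 and 25.4 FPKM in HCC4006 YAP1 KO and 54.5, 55.5 and 53 FPKM in HCC4006 CTRL libraries (-1.01, difference 1.87, adjusted p = 3.33e-15). COL6A2 differed by -0.70 there, STC2 by -0.45 and HBEGF by -0.74, each with the sign opposite to PC9 and a called difference between lines. VIM was not called in HCC4006 (-0.16, difference 1.96, adjusted p = 1.15e-08). Of the G2/M genes 17 of 30 rose and none fell in HCC4006, and 22 were lower in PC9 by the test.

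**Figure D5:**
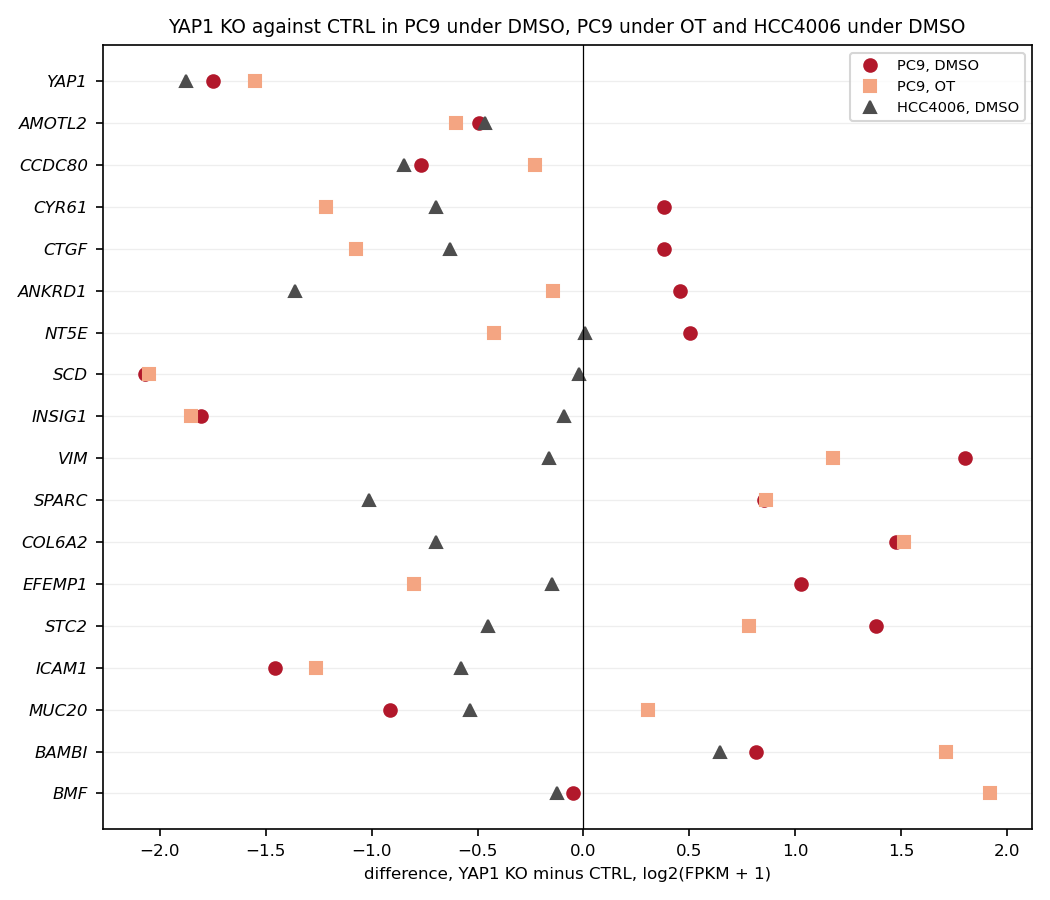
Difference in log2(FPKM + 1), YAP1 KO minus CTRL (x axis), for 18 genes (y axis) in PC9 in DMSO (circles), PC9 in OT (squares) and HCC4006 in DMSO (triangles); each mark is a difference of 2 means of 3 libraries. YAP1 lies at -1.75, -1.55 and -1.88, SCD near -2.07 in both PC9 treatments but at -0.02 in HCC4006, and CYR61 at 0.38 in PC9 in DMSO, -1.22 in PC9 in OT and -0.70 in HCC4006.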

How the data were processed

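Poly(A) RNA of 24 libraries was sequenced after stranded mRNA preparation from 500 ng of TRIzol-extracted RNA, per the labels' protocols. FPKM per gene symbol came in a single table that the authors made, and no read counts were used here. STAR 2.5.1b, Cufflinks 2.2.1 and DESeq2 1.10.1, with the builds hg19 and GRCh37, are named in the submitters' processing notes without their roles. The annotation and the strand setting of the counting are not given in the sources used here, so overlapping and near-identical genes may share reads. An exact 0 may be a failed estimate. The depth of the libraries is unknown and no counting interval is given.

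From the deposited FPKM, log2(FPKM + 1) was fitted with limma 3.58.1 in R 4.3.3, with 1 mean per group and empirical Bayes moderation with a trend. The 12 PC9 libraries entered the fit for the PC9 differences and for DMSO minus OT. All 24 entered the fit for the HCC4006 difference and for PC9 minus HCC4006. P-values are two-sided and adjusted by Benjamini-Hochberg over all members, and a gene was called at an adjusted p under 0.05. The fit was tested on simulated data. Same-numbered replicates deviated with correlations of -0.12, 0.15 and 0.08, and differently numbered ones with -0.23 to 0.17. So few values cannot decide whether the numbers pair dishes, and the labels do not say. The fit used no pairing.

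Named genes are YAP1, the 12 highest and 12 lowest called genes whose groups did not overlap, up to 4 called members of each gene list with the largest differences, and a fixed set of Hippo, sterol, cell cycle and apoptosis genes. Short RNA rows, 79 of the members, and symbols turned into dates, 20 of the members, stayed in the fit and are not named. Some genes that this rule names entered the fits and counts and are not reported here. The members and lists were chosen with earlier results of these data known. Promoter sequences are from RefSeq. Alternatives were other pseudocounts, filters, scalings, libraries in the fit, prior spread, a replicate block and each replicate left out.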

Additional observations from a re-analysis of the deposited data

Results flagged for a closer look

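Of 150 named genes, 85 had a called difference between the PC9 response in DMSO and in OT (limma, adjusted p under 0.05). Between PC9 and HCC4006 in DMSO, 97 of 136 testable ones were called by the same test. The shares over all members tested were 27.1% and 31.1%. Many named genes were picked for a large PC9 difference in DMSO, which is part of both comparisons. Their higher shares follow in part from that choice and are not a result about these genes. Reported genes with a difference of 1.5 or more on the log2 scale are given here. With 3 libraries a group no single library was tested as standing apart.

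DMSO minus OT, the difference of the YAP1 KO minus CTRL differences was 1.82 for EFEMP1 and 1.60 for CYR61, both higher in YAP1 KO cells in DMSO and lower in OT. It was -1.97 for BMF, which was called in OT and not in DMSO, and -2.42 for PTCD1, a row with values near 0.

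PC9 minus HCC4006, it was below 0 for the sterol and fatty acid genes SCD (-2.05), INSIG1 (-1.71) and FADS2 (-1.53), and at -2.59 for the readthrough row MINOS1-NBL1. It was above 0 for the mesenchymal and matrix genes COL6A2 (2.17), VIM (1.96), SPARC (1.87) and TWIST2 (1.59). Over the whole matrix list, 15 of 27 testable members had a called positive and 8 a called negative difference. The stress genes NUPR1 at 2.31 and STC2 at 1.84 were also above 0. For NUPR1 most of this lay in HCC4006. Its PC9 difference was 0.34 to 0.37 in the 3 fits that lost its call, each without 1 library. PC9 minus HCC4006 was 1.82 for the YAP1 target ANKRD1, 1.80 for KISS1, 1.66 for PROS1, 1.64 for RPL22L1 and 1.59 for ADAM19.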

How the results depend on the processing

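The counts of genes called in DMSO, of DMSO minus OT and of PC9 minus HCC4006, and the YAP1 difference, stayed within 1.5 times under every alternative run. Scaling still changed the balance of DMSO minus OT calls, as given with that comparison. The 2-fold counts did not stay within 1.5 times. They were 140 higher and 114 lower with a pseudocount of 0.1 and 147 and 120 with 0.01. The higher count was 32 with a filter at 5 FPKM and 37 with 1 FPKM in all 6 libraries, both of which test fewer genes. Leaving out 1 library gave 2039 to 2539 higher and 2202 to 2546 lower, 55 to 60 and 57 to 64 by 2-fold, and YAP1 at -1.77 to -1.72. It gave 1461 to 1761 positive and 1302 to 1609 negative for DMSO minus OT. For PC9 minus HCC4006 it gave 1282 to 1794 positive and 1694 to 2239 negative. Both of these upper ends came without HCC4006 CTRL OT replicate 1, which is not in that contrast but enters its estimate of the spread. Without any other 1 library the highest counts were 1547 and 1988. With the replicate number as a block, the counts were 2467 higher and 2492 lower. Median-of-ratios scaling gave 44.9% of calls as higher, against 49.9% as deposited. The values of 3 genes turned sign, CCND1 to -0.0098 without the third CTRL library (range 0.054 at the highest), BMF to 0.022 without the first YAP1 KO library (-0.11 at the lowest) and the DMSO minus OT difference of DUSP6 to -0.087 with a pseudocount of 0.01; the cause was not tested. DMSO minus OT calls of YAP1 and VIM were lost under 17 and 13 of 22 alternatives, and those of ICAM1 and CDKN1A under several. Unknown depth and 3 dishes a group limit what low genes can show.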

Other observations

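Genes outside the lists were looked through after their values were seen, and those given here moved both ways and stand for no group. TRIM29, found in basal epithelium, stood at 42.1, 41.7 and 41.2 FPKM in YAP1 KO libraries, against 109, 109.6 and 109.8 FPKM in CTRL libraries (-1.37, SE 0.03, limma adjusted p = 6.28e-11). SFN, the 14-3-3 sigma protein of stratified epithelium, was at 98, 94.5 and 96.5 FPKM in YAP1 KO and 199, 194 and 194 FPKM in CTRL libraries (-1.02, adjusted p = 1.95e-09). In both the groups did not overlap. The inflammatory caspase CASP1 fell by 1.58 on the log2 scale, the metallothionein MT1E by 1.45 and CTH, an enzyme that makes cysteine, by 1.37.

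PTHLH, which encodes parathyroid hormone-related protein, was at 7.69, 7.81 and 10.1 FPKM in YAP1 KO libraries, against 2.48, 2.86 and 2.68 FPKM in CTRL libraries (1.37, SE 0.10, adjusted p = 3.72e-07). TGM2, a transglutaminase that crosslinks matrix proteins, was at 177, 177 and 172 FPKM in YAP1 KO and 80.7, 81 and 76.2 FPKM in CTRL libraries (1.13, adjusted p = 4.69e-09). The secreted protease HTRA1 rose by 1.20 and PMEPA1, an inhibitor of TGF-beta signalling, by 1.02. The epithelial transcription factor SPDEF differed by 1.03 and the gap junction gene GJA5 by -1.02, each having passed the filter only through the group in which it was high. The gap junction gene GJB2 rose by 1.32, and the secreted proteins FGFBP1 and NMB fell by 1.04 and 1.07.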
